A study of Mus musculus with 72 samples.

Results

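The genes described here are those of the cytosolic ribosomal proteins, the protein parts of the 40S and 60S ribosomal subunits. They were taken by name from the probe annotation of the array: every gene whose symbol starts with Rpl or Rps and a digit, together with Rplp0, Rplp1, Rplp2 and Rpsa, and without the Rps6k kinases, the mitochondrial Mrpl and Mrps genes and pseudogenes. The rule found 66 of 16593 measured genes and left out 6 Rps6k genes. The rule uses names and no measured value, but it was set with earlier results of these data known. The members were 23 genes of the 40S subunit, 32 of the 60S subunit, 3 of the P-stalk and 8 further matches that are paralogs of a subunit gene, a retrogene or, for Rps19bp1, a binding protein that is no ribosomal subunit.

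Liver RNA was measured on Illumina BeadChip arrays in Scp2 knockout mice (KO), whose deletion spans the Scp2 locus and so removes both the lipid transporter SCP2 and the thiolase SCPx, and in C57Bl/6J wild type mice (WT). The KO line had been backcrossed to C57Bl/6, and the deletion was present in the whole animal. All were males of 10 to 12 weeks kept under 12 h of light and 12 h of dark, and all were fed only at night for the last days before death. Livers were taken every 2 h at 12 times (Zeitgeber Time, ZT, with lights on at ZT0), 3 mice per genotype and time, which gave 36 KO and 36 WT arrays.

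The ribosome decodes mRNA on its 40S subunit and joins amino acids on its 60S subunit, while the P-stalk, built of RPLP0, RPLP1 and RPLP2, recruits the translation factors that split GTP. Mammalian ribosomal protein mRNAs carry a run of pyrimidines at their 5′ end, the TOP motif, through which TORC1 signalling sets how strongly they are translated, so that in liver feeding acts on these genes mostly at the level of translation and less at that of mRNA. RPS6, a 40S protein, is the classical substrate of the S6 kinases downstream of TORC1. The values below are levels of mRNA and say nothing of translation or phosphorylation.

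The labels were checked on Scp2 itself, whose 3 bright probes averaged between 5.89 and 10.30 on the log2 scale in KO livers, against 11.77 to 12.93 in WT livers. Of the 7 hepatocyte markers measured, Apoa1, Ttr, Cps1 and Serpina1a had bright probes in both genotypes, with means from 11.78 to 13.98 in KO livers, against 11.86 to 13.95 in WT livers. Median signals per array ran from 95.5 to 114.2 in KO and from 96.1 to 114.4 in WT. The column names sort the arrays into 6 sets of 12, 1 array per time, named KO 4, 5 and 6 and WT 6, 9 and 10; each set holds 1 genotype only. The study describes harvests on 3 consecutive days, but whether a set is a day is not stated in the sources used here. One set and 1 array stood apart. Of the 52 members with a bright probe, 41 (78.8%) had the highest of their 6 set means in WT set 6, where 19.3% of all genes as bright did. The WT array of set 6 at 12 h had the lowest median rank correlation with the other arrays, 0.883, against 0.924 for the next. The main counts and medians are also given without WT set 6.

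Of the 66 members, 52 had a probe with a mean above 7 on the log2 scale, in a range from 7.66 to 13.59. The other 14 lay between 5.86 and 6.43, near the floor of the array, where the lowest gene averaged 5.70. The level of 7 falls in the gap between these values and was chosen after they were seen. Genes said to be as bright, here and above, are all 3796 genes above this level. They were dimmer on average than the 52 members, with means by set of 8.63 to 8.64, against 10.80 to 10.94. Shares of genes as bright are thus matched to the level of 7 only. The 14 were Rps15a, Rps23, Rpsa, Rpl6, Rpl14, Rpl17, Rpl21, Rplp0, Rplp2, Rpl22l1, Rpl39l, Rpl3l, Rps23rg1 and Rps19bp1. Probe signals are not comparable between probes, so a dim probe is no measure of a rare mRNA. The 3 brightest probes were those of Rpl41, Rplp1 and Rps20, with means of 13.59, 13.27 and 12.98, and the 3 dimmest those of Rplp2, Rps23 and Rpl6, with 5.86 each.

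The sequences at the start of the genes are shown because the TOP motif is the feature by which these mRNAs are grouped, and because it can be set beside the members that differed between genotypes. RefSeq promoter entries of the GRCm38.p6 build were at hand for 57 of the 66 members, with 68 listed starts. A pyrimidine run was searched on the sense strand as a C within 5 bases of the listed start that is followed by at least 4 bases of C or T. Where several C met this, the one nearest the start was taken as the first base, also where pyrimidines precede it. It stood at 29 of the 68 starts (42.6%), which belong to 27 members, and at 18.3% of the 32851 starts of all genes. Windows of 30 bases, 10 before and 20 from the start on, follow for the 8 members lower in KO with an entry, for Rps6 and for the 2 members with the strongest daily rhythm. Capitals mark the run from that C on, and a sequence without capitals has none that begins so near the start.
Rps27, chr3:90213629-90213658, minus strand: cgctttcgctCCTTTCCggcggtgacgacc
Rps21, chr2:180257369-180257398, plus strand: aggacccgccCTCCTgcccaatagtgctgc
Rps13, chr7:116334171-116334200, minus strand: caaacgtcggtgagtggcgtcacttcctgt
Rps15, chr10:80292421-80292450, plus strand: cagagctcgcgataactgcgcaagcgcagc
Rps16, chr7:28350679-28350708, plus strand: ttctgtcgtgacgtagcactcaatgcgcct
Rps4x, chrX:102189372-102189401, minus strand: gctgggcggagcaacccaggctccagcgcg
Rpl12, chr2:32961702-32961731, plus strand: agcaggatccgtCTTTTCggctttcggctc
Rpl23, chr11:97782420-97782449, minus strand: gtccggtcacgtggctgagtgggcggggcc
Rps6, chr4:86857348-86857377, minus strand: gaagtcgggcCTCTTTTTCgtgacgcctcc
Rpl22, chr4:152325716-152325745, plus strand: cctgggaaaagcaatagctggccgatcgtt
Rpl7l1, chr17:46782637-46782666, minus strand: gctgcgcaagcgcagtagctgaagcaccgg
Counted from that C, the run had 9 bases in Rps6 and 7 in Rps27. Of the 8 members lower in KO, Rps27, Rps21 and Rpl12 had it. It stood at 3 of the 9 listed starts of the 8 (33.3%), beside 42.6% of the starts of all members. Rps21 has 2 listed starts, of which the one with a run is shown. A listed start can lie some bases away from the one used in liver, so a missing run says only that none begins within 5 bases of the listed one. Rps13, for one, has pyrimidines farther on in its window.

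The first comparison asked whether the members differed between KO and WT liver over all 12 times. No member rose and 9 fell in KO, where 5.93% of all genes rose and 6.38% fell (limma, Benjamini-Hochberg over all genes, adjusted p under 0.05). Of the 52 members with a bright probe the 9 are 17.3%, where 15.7% of all genes as bright fell and 16.2% rose, so the share that fell lies near that of genes as bright. At an unadjusted p under 0.05, 2 members were higher, beside 9.85% of all genes, and 13 lower, beside 10.9%. The 9 were Rps27, Rps21, Rps13, Rps16, Rps15 and Rps4x of the 40S subunit and Rpl23a, Rpl23 and Rpl12 of the 60S subunit, all with a bright probe. The median log2 difference, KO minus WT, was -0.023 over the 66 members and -0.032 over the 52 bright ones, 41 of which were below 0, beside a median of -0.00028 over all genes. Without WT set 6, 2 members fell, Rpl23a and Rps27, and 2 rose, Rpl4 and Rps7, and the median over the members was 0.0026. In these bulk samples a smaller share of cells with an mRNA and less of it per cell cannot be told apart.

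**Figure D1:**
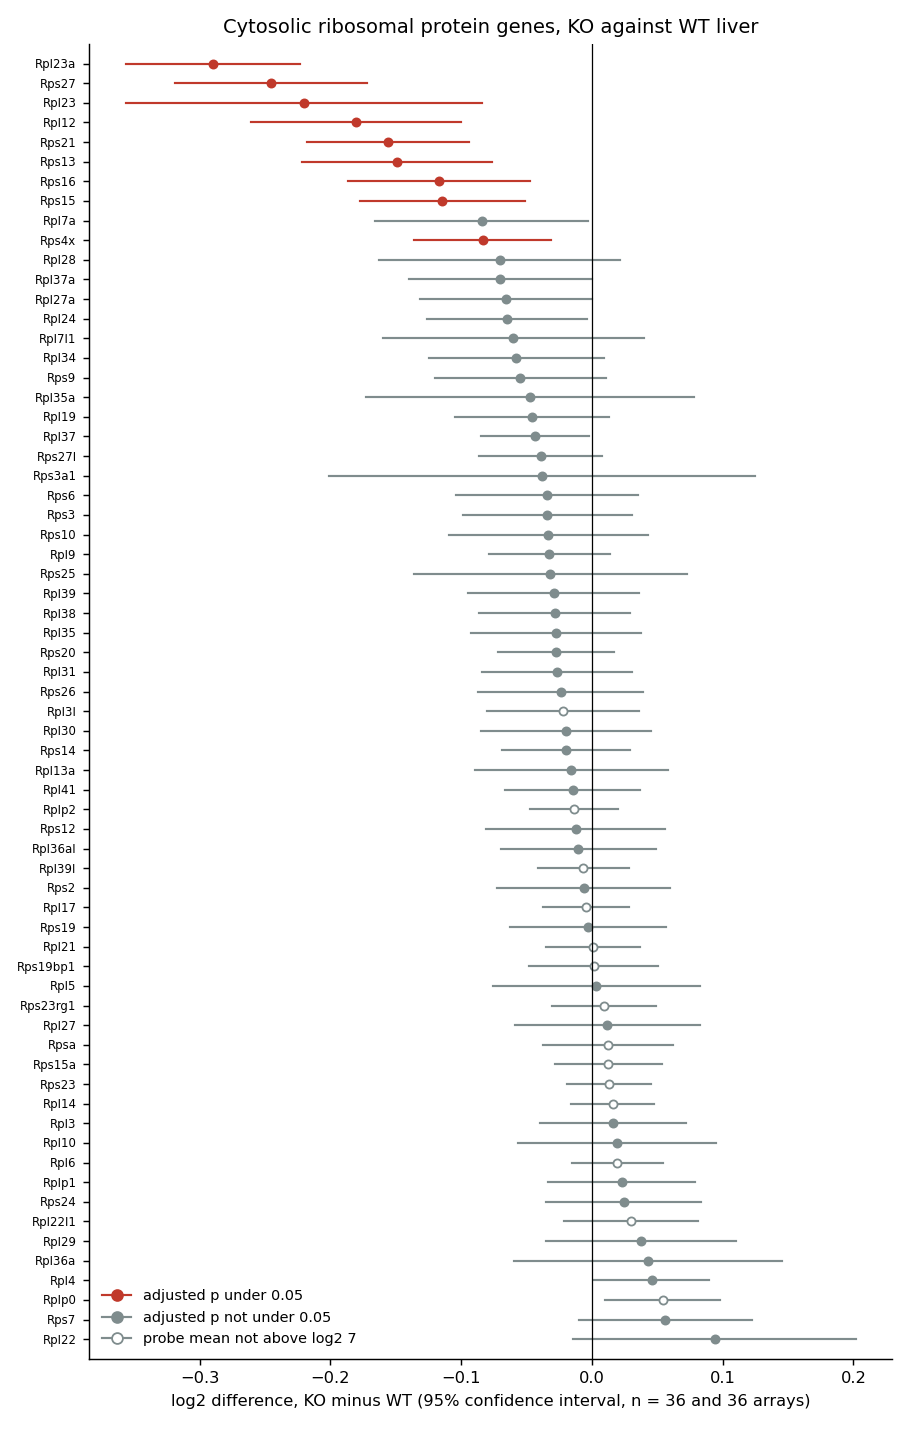
Log2 difference, KO minus WT, of each of the 66 members (points) with its 95% confidence interval (lines) over 36 KO and 36 WT arrays; red marks an adjusted p under 0.05 and open points a probe mean not above 7. Rpl23a had the most negative value, -0.29, and Rpl22 the most positive, 0.094, and all 9 red points lie left of 0.

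Rpl23a, a 60S protein at the exit of the peptide tunnel where the signal recognition particle docks, had the largest difference. Its lowest, median and highest log2 values were 9.71, 10.18 and 10.50 in KO livers, against 10.28, 10.47 and 10.79 in WT livers. The groups overlapped in part: 26 of the 36 KO arrays lay below the lowest WT array, and 35 of 36 below the WT median. The mean was 10.19 ± 0.16 in KO and 10.48 ± 0.12 in WT (SD over 36 arrays each). KO minus WT was thus -0.29 on the log2 scale (SE 0.033, adjusted p = 7.2e-11), which is 18.2% lower in KO. The KO mean was the lower one at 12 of 12 times. The set means were 10.22, 10.18 and 10.16 in KO sets 4, 5 and 6, against 10.59, 10.42 and 10.42 in WT sets 6, 9 and 10, so that all KO sets lay below all WT sets. Without WT set 6 the difference was -0.23 (adjusted p = 6.9e-07).

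Rps27, a small zinc finger protein of the 40S subunit, followed. Its lowest, median and highest log2 values were 10.72, 11.10 and 11.42 in KO livers, against 10.94, 11.35 and 11.69 in WT livers. The ranges overlapped more than for Rpl23a, yet 34 of 36 KO arrays lay below the WT median. The means were 11.09 ± 0.15 in KO and 11.34 ± 0.16 in WT (SD over 36 arrays each). KO minus WT was -0.25 on the log2 scale (SE 0.037, adjusted p = 2.1e-07), or 15.6% less in KO, and the KO mean was lower at 12 of 12 times. Set means were 11.10, 11.08 and 11.11 in KO sets 4, 5 and 6, against 11.45, 11.24 and 11.32 in WT sets 6, 9 and 10. Without WT set 6 the difference was -0.19 (adjusted p = 2.0e-04). Its paralog Rps27l, which a bright probe measured, averaged 12.32 in KO and 12.36 in WT, a log2 difference of -0.039 that missed the threshold (adjusted p = 0.38).

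The other 5 lower members of the 40S subunit differed less, and all 5 missed the threshold without WT set 6. Rps21 averaged 11.53 ± 0.12 in KO and 11.69 ± 0.15 in WT (SD, n = 36 each), a log2 difference of -0.16 (adjusted p = 8.7e-05), and its KO mean was the lower one at 12 of 12 times. Rps13 averaged 10.12 ± 0.16 in KO and 10.27 ± 0.15 in WT (log2 difference -0.15, adjusted p = 0.0017). For both, all KO set means lay below all WT set means, for Rps13 narrowly, with 10.14 in KO sets 4 and 6 beside 10.15 in WT set 9. Rps16, whose tail reaches the tRNA in the P site, had a log2 difference of -0.12 (adjusted p = 0.014). Rps15, in the head of the 40S subunit, had -0.11 (adjusted p = 0.0071), and the X-linked Rps4x had -0.084 (adjusted p = 0.021). Without WT set 6 the differences of these 5 lay between -0.10 and -0.028, with adjusted p from 0.059 for Rps21 to 0.67 for Rps4x. That fit also had fewer WT arrays, and the part of the set and that of the number of arrays were not told apart. Without KO set 5, Rps15, Rps16 and Rps4x also missed the threshold.

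Rpl12, which forms the base of the P-stalk on the 60S subunit, averaged 10.31 ± 0.16 in KO and 10.49 ± 0.18 in WT (SD, n = 36 each), a log2 difference of -0.18 (adjusted p = 5.1e-04). Without WT set 6 it was -0.11 (adjusted p = 0.097). Rpl23, a 60S protein that in its free form binds MDM2, had its difference from 1 set alone. Its 12 arrays of WT set 6 ran from 13.25 to 13.81, all above the highest of the other 60 arrays, at 13.16, and among all genes with a bright probe no other gene separated that set in this way. The set means were 12.79, 12.84 and 12.88 in KO sets 4, 5 and 6, against 13.54, 12.89 and 12.74 in WT sets 6, 9 and 10. The log2 difference was -0.22 over all arrays (SE 0.068, adjusted p = 0.019) and 0.021 without WT set 6 (adjusted p = 0.89). A second bright probe of Rpl23 averaged 12.04 in KO and 12.05 in WT, and its WT set means were 12.07 in set 6, 12.02 in set 9 and 12.06 in set 10. One more bright probe averaged 8.14 in KO and 8.09 in WT, with 8.08 in WT set 6. The high values of set 6 were thus seen with 1 of the 3 bright probes of the gene.

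**Figure D2:**
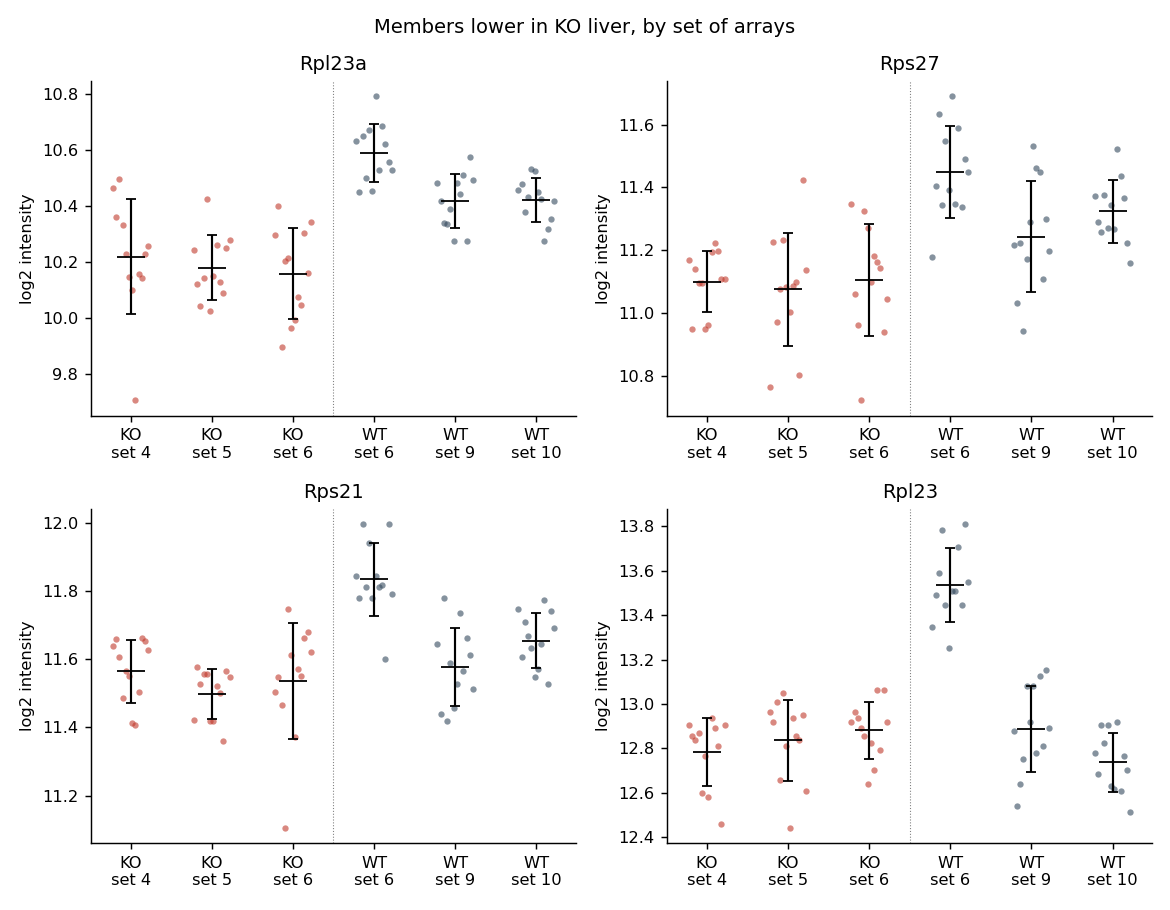
Log2 intensity of Rpl23a, Rps27, Rps21 and Rpl23 on each array (points, in order of time within a set), by set, with the mean and SD of the 12 arrays (bars). Rpl23a and Rps27 were lower in every KO set than in every WT set, while for Rpl23 WT set 6 alone stood above the rest, at 13.54.

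By sets, 6 members had all 3 KO set means below all 3 WT set means (Rpl23a, Rps27, Rps21, Rps13, Rpl7a and Rpl27a), where 10.5% of all genes did, and 2 had them above (Rplp0 and Rpl14, both near the floor), where 10.2% of all genes did. Both counts lie close to or under the share of all genes. The mean over the 52 bright members was 10.82 ± 0.072 in KO and 10.86 ± 0.082 in WT (SD, n = 36 arrays each). By set it was 10.84, 10.80 and 10.81 in KO sets 4, 5 and 6, against 10.94, 10.80 and 10.84 in WT sets 6, 9 and 10. Leaving WT set 6 aside, the KO and WT sets thus lay in the same range. Bright 40S members had a median log2 difference of -0.034 (18 of 20 below 0) and bright 60S members of -0.029 (20 of 28 below 0). The medians without WT set 6 were -0.00080 (11 of 20 below 0) and 0.0069 (11 of 28 below 0), so neither group stood lower in KO without that set.

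**Figure D3:**
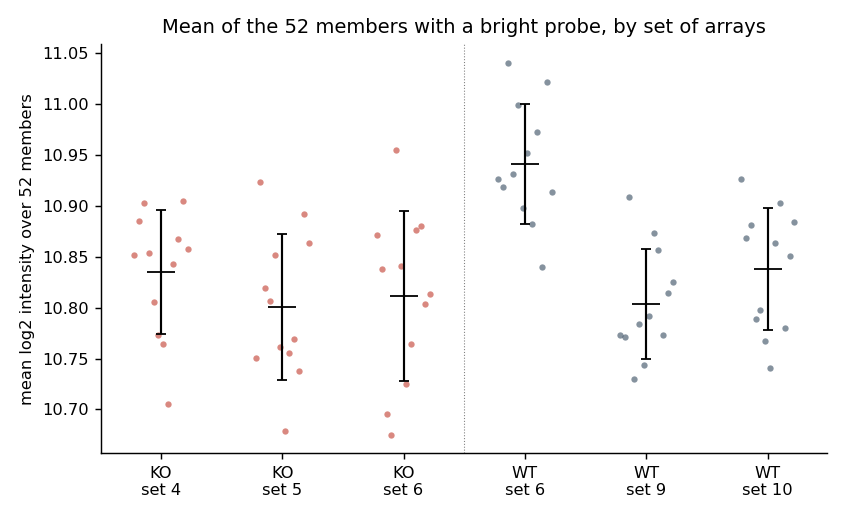
Mean log2 intensity over the 52 members with a bright probe on each array (points, in order of time within a set), by set, with the mean and SD of its 12 arrays (bars). WT set 6 averaged 10.94, and the 5 other sets lay between 10.80 and 10.84.

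The members not lower in KO include those most often used as references in quantitative PCR. Of 7 such members measured, none passed the test as reported. Rplp0, Rpl4 and Rpl27 were on the higher side, with log2 differences of 0.054, 0.046 and 0.012. Rps9, Rpl19, Rpl30 and Rpl13a were on the lower side, from -0.055 to -0.016. The probe of Rplp0 lay near the floor, and Rplp0 passed as higher with time as a factor in the fit. Rpl4 passed as higher without WT set 6, and Rpl13a was rhythmic in WT. Among 10 other common reference genes, 2 rose and 4 fell in KO, where 5.93% of all genes rose and 6.38% fell. Bright probes measured 7 of these 10, and of all genes as bright 16.2% rose and 15.7% fell. Hprt, of purine salvage, averaged 10.47 in KO and 10.11 in WT (log2 difference 0.36, adjusted p = 6.7e-19). Actb, cytoplasmic actin, averaged 11.25 in KO and 11.56 in WT (-0.31, adjusted p = 0.0030), and Gusb, a lysosomal glucuronidase, 8.20 in KO and 8.37 in WT (-0.17, adjusted p = 0.0013).

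In the P-stalk, Rplp1 alone had a bright probe. It averaged 13.28 ± 0.11 in KO and 13.26 ± 0.14 in WT (SD, n = 36 each), a log2 difference of 0.023 with a 95% interval from -0.034 to 0.079 (adjusted p = 0.77). The probe of Rplp0, which anchors the other stalk proteins, averaged 6.45 in KO and 6.40 in WT (0.054, adjusted p = 0.11), and that of Rplp2 averaged 5.85 in KO and 5.86 in WT (-0.014, adjusted p = 0.76). For both, a change in the mRNA could be hidden by the floor. With time as a factor in the fit Rplp0 passed the test, as did Rpl22, both on the higher side.

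Among the 8 paralogs and other matches, none passed the genotype test as reported. Bright probes measured Rps27l, Rpl36al and Rpl7l1. Rpl36al, the paralog of Rpl36a, averaged 12.18 in KO and 12.20 in WT (log2 difference -0.010, adjusted p = 0.91), and Rpl7l1, a paralog of Rpl7, averaged 8.19 in KO and 8.25 in WT (-0.060, adjusted p = 0.60). Rpl22l1, which RPL22 holds down in mice, Rpl3l, the striated muscle counterpart of Rpl3, Rpl39l, known from testis, the retrogene Rps23rg1 and Rps19bp1, a partner of RPS19 and SIRT1, lay near the floor, with log2 differences from -0.022 to 0.030. Near-identical copies of ribosomal protein genes are common in the mouse genome, and a probe can bind their transcripts too.

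Scp2 lies on chromosome 4, so genes beside it can carry alleles of the strain in which the deletion was made. The 3 members on this chromosome lay 106 measured genes away (Rps6), 409 (Rps20) and 498 (Rpl22). None of them passed the genotype test as reported, while Rpl22 passed on the higher side with time as a factor in the fit. Rps6 ran from 10.35 to 11.07 with a median of 10.83 in KO livers, against 10.46 to 11.14 with a median of 10.85 in WT livers. The ranges nearly coincided, and the log2 difference was -0.034 with a 95% interval from -0.10 to 0.036 (adjusted p = 0.69). Rps20 had -0.027 (adjusted p = 0.59) and Rpl22 0.094 (adjusted p = 0.34).

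At single times, with 3 KO and 3 WT mice each, few members passed. There was none at 0, 2, 4, 6, 8 and 10 h, where 0.814%, 0.796%, 0.789%, 0.675%, 0.91% and 0.573% of all genes did, and none at 16, 18, 20 and 22 h, where 0.94%, 0.862%, 0.988% and 0.56% did. At 12 h, Rpl23a and Rps27 were lower, beside 1.8% of all genes, and at 14 h Rpl23a, beside 0.663%. At 12 h Rpl23a had 9.99, 10.10 and 10.15 in KO livers, against 10.45, 10.48 and 10.79 in WT livers, so that the groups did not overlap. Its log2 difference was -0.49 (adjusted p = 0.0090 by limma over 24 groups). Rps27 had 10.96, 11.01 and 11.10 in KO livers, against 11.27, 11.53 and 11.69 in WT livers, also without overlap (-0.47, adjusted p = 0.040). Without the WT array of set 6 at 12 h the differences were -0.39 (adjusted p = 0.17) and -0.38 (adjusted p = 0.31), and no member passed. Calls over all genes at 12 h then fell from 298 to 113. The part of that array and that of fewer WT mice in the lost calls were not told apart. The median difference of the 52 bright members ran from -0.12 at 4 h and at 14 h, where 48 and 44 of them were below 0, to 0.033 at 2 h and at 18 h, where 19 and 20 were. Leaving WT set 6 out, it was -0.085 at 4 h (44 of 52 below 0) and -0.12 at 14 h (40 of 52 below 0), and the highest was 0.080, at 8 h. Rpl23a then missed the threshold at 14 h too (log2 difference -0.42, adjusted p = 0.086), while Rpl3l, at 8 h, and Rpl36al, at 14 h, passed as lower and Rpl35, at 18 h, as higher. These calls rest on fewer WT mice per time. Rpl3l moreover lies near the floor, with its highest WT array at 6.77 beside a WT median of 5.85.

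The second question was whether the members followed a 24 h rhythm in each genotype. A cosine of 24 h passed the test for 6 members in KO, where 13.7% of all genes did, and for 6 in WT, where 15.8% did (F-test, Benjamini-Hochberg over all genes). Among genes with a bright probe the shares were 6 of 52 members (11.5%) in KO, beside 40.2% of all genes as bright, and 5 of 52 (9.62%) in WT, beside 42.9%. Rpl22 and Rpl7l1 passed in both genotypes, Rps2, Rps7, Rpl23a and Rpl36al in KO, and Rps24, Rpl13a, Rpl27a and the dim Rps19bp1 in WT. No member's rhythm differed between KO and WT in the test of that difference, which 0.127% of all genes passed. At an unadjusted p under 0.05, 6 members did, where 8.47% of all genes did. For members that passed in 1 genotype alone, a difference of rhythm was thus not shown. When each array was scaled to a common median in place of quantile normalization, 1 member passed in KO (Rpl22) and 2 in WT (Rpl22 and Rps19bp1).

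Rpl22, a 60S protein that binds RNA and that mice can do without in most tissues, had the largest amplitude. At 12 h, the time of its highest mean, it had 8.13, 8.14 and 8.42 in KO livers, against 8.08, 8.08 and 8.32 in WT livers. At 18 h, the time of its lowest mean, it had 7.48, 7.62 and 7.66 in KO livers, against 7.38, 7.48 and 7.53 in WT livers. Within each genotype the 3 mice of 12 h all lay above the 3 of 18 h. Both times were picked by these same values, so the separation is a description. The highest mean, at 12 h, came later than the fitted peaks given next. The fitted amplitude, from mean to peak on the log2 scale, was 0.22 ± 0.038 in KO with a peak at ZT7.07 ± 0.67 h (adjusted p = 3.1e-04), and 0.28 ± 0.034 in WT with a peak at ZT7.55 ± 0.45 h (adjusted p = 4.7e-07; ± SE of the fit over 36 arrays). Peak over trough was 1.35-fold in KO and 1.48-fold in WT, and the rhythms were not shown to differ (adjusted p = 0.89). Rpl22 kept its call in the 10 alternatives run for it in KO and the 11 in WT. On the means of the 3 arrays per time no member passed in KO.

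Rpl7l1 ran against it. Its lowest time mean was 7.87 in KO, at 12 h, and 7.95 in WT, at 8 h, while its highest was 8.48 in KO, at 2 h, and 8.57 in WT, at 16 h. The amplitude was 0.19 ± 0.037 in KO with a peak at ZT21.6 ± 0.75 h (adjusted p = 0.0012) and 0.22 ± 0.039 in WT with a peak at ZT19.6 ± 0.69 h (adjusted p = 3.5e-04). The fitted peak of Rpl7l1 thus lay in the dark phase, when the mice ate, and that of Rpl22 in the light phase, although the highest single time mean of Rpl7l1 in KO came 2 h after lights on. The rhythms were not shown to differ between genotypes (adjusted p = 0.72).

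**Figure D4:**
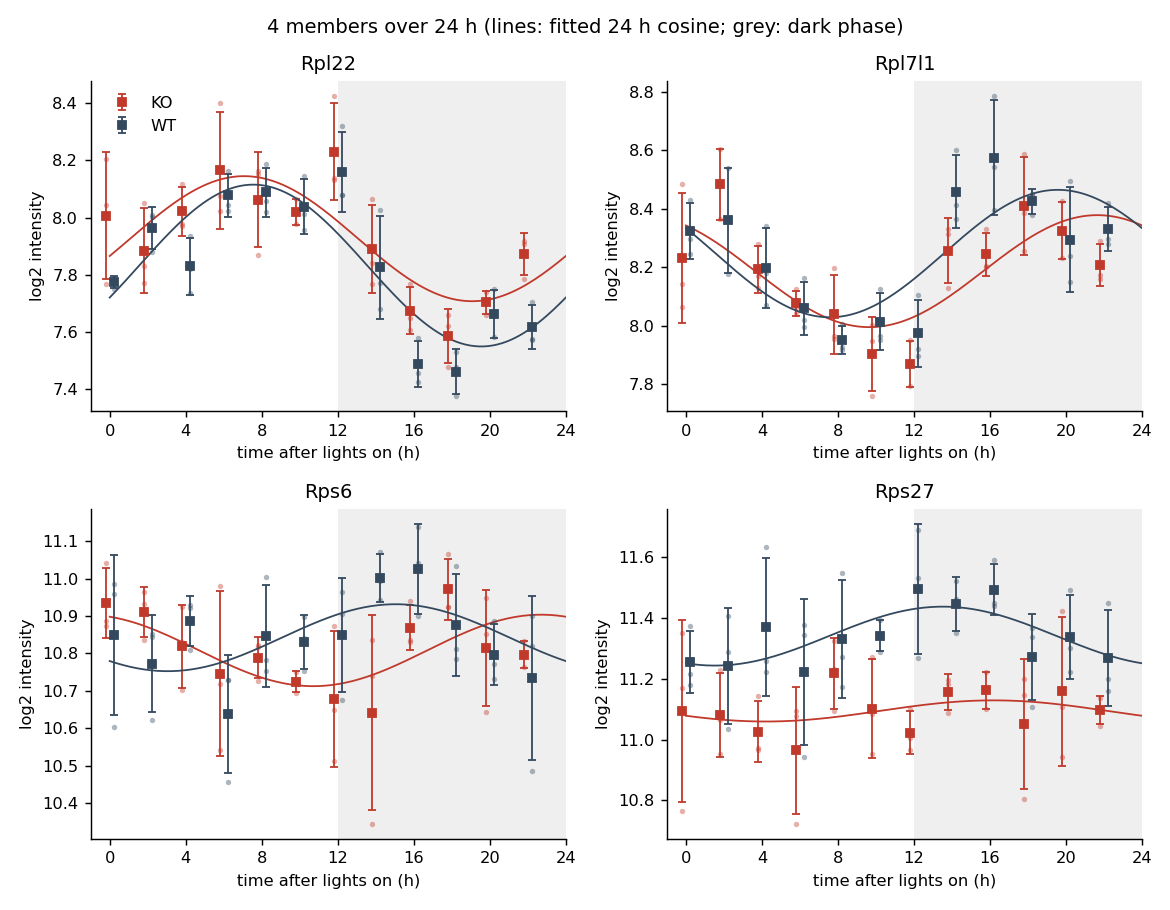
Log2 intensity of Rpl22, Rpl7l1, Rps6 and Rps27 over 24 h in KO (red) and WT (blue) livers: small points are single mice, squares and bars the mean and SD of 3 mice, and lines the fitted 24 h cosine, with the dark phase in grey. Rpl22 was lowest at 18 h in both genotypes and Rpl7l1 near 8 to 12 h.

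The other rhythmic members had amplitudes near 0.1. In KO they were Rps2, near the mRNA entry of the 40S subunit (amplitude 0.12, peak at ZT23.6, adjusted p = 0.025), Rps7 (0.12, ZT2.07, adjusted p = 0.020), Rpl23a (0.12, ZT0.88, adjusted p = 0.041) and Rpl36al (0.11, ZT1.65, adjusted p = 0.013). In WT they were Rps24 (0.11, ZT1.01, adjusted p = 0.015), Rpl27a (0.11, ZT0.71, adjusted p = 0.023), Rpl13a (0.10, ZT21.6, adjusted p = 0.038) and Rps19bp1 (0.11, ZT20.6, adjusted p = 8.4e-05). All peaked between ZT20 and ZT3, around the end of the dark phase. In the other genotype the amplitude of Rps2 was 0.077 in WT, that of Rps7 0.033 and that of Rpl23a 0.0089, none past the test. Leaving out 1 KO set took the count in KO to 2 (without set 4, Rpl22 and Rpl7l1) or 3 (without set 5, with Rpl23a beside them). Without KO set 6 the count was again 6, of which 3 were among those reported, and leaving out WT set 6 took that in WT to 3.

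Over the 52 bright members the median amplitude was 0.063 in KO and 0.044 in WT, beside 0.095 in KO and 0.11 in WT over all genes as bright. The larger amplitude was that in KO for 36 of the 52, but for 27 of 52 without WT set 6. The WT median was then 0.051 over the members and 0.117 over all genes as bright. The WT fits then used fewer arrays than the KO fits, so the set and the number of arrays cannot be told apart. The fitted peak lay between ZT18 and ZT6 for 43 of 52 members in KO (82.7%), where 49.7% of all genes as bright did, and for 40 of 52 in WT (76.9%), where 53.1% did. In WT without set 6 it was 42 of 52 (80.8%), beside 52% of all genes as bright. Most of these peaks belong to fits that did not pass the test, and members of 1 array share its level, so the shares are a description. Rpl22, with its peak in the light phase, is the rhythmic member outside that window in both genotypes.

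**Figure D5:**
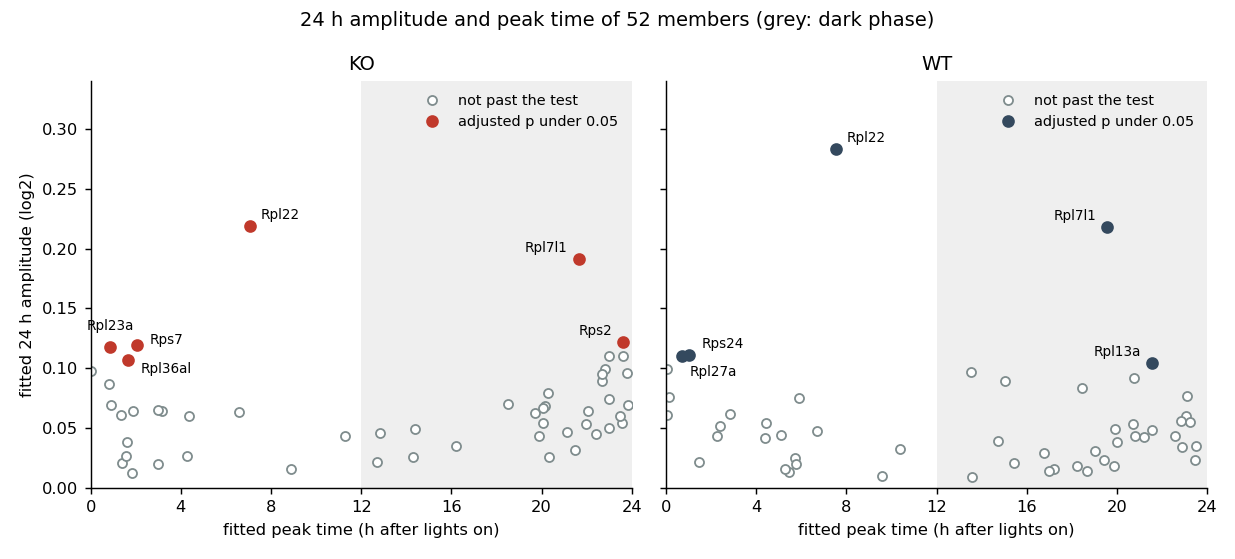
Fitted 24 h amplitude on the log2 scale against fitted peak time of the 52 members with a bright probe, in KO (left) and WT (right), with filled points for an adjusted p under 0.05 and the dark phase in grey. Rpl22 peaked at ZT7.07 in KO and ZT7.55 in WT, and most other members between ZT18 and ZT6 with amplitudes under 0.13.

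Rps6 mRNA did not pass the rhythm test in KO (amplitude 0.095, peak at ZT22.7, adjusted p = 0.11) or in WT (0.089, ZT15.1, adjusted p = 0.18). It had the smallest unadjusted p of all members for a difference of rhythm, 0.0047, which became 0.28 after adjustment. At 14 h it had 10.35, 10.74 and 10.84 in KO livers, against 10.94, 10.99 and 11.07 in WT livers, without overlap, but the difference at that time did not pass the test across genes.

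Any difference among the 12 times, of whatever shape, passed for 10 members in KO, where 11.1% of all genes did, and for 3 in WT, where 9.5% did. In WT they were Rpl22, Rpl7l1 and Rps19bp1, the last of which missed the threshold without WT set 6. Of genes with a bright probe, 10 of 52 members (19.2%) passed in KO, beside 34% of all genes as bright, and 2 of 52 (3.85%) in WT, beside 28.3%. In KO they were Rpl22, Rpl7l1, Rps2, Rps10, Rps13, Rps26, Rpl9, Rpl13a, Rpl24 and Rpl29, with ranges of time means from 0.31 for Rpl9 to 0.64 for Rpl22. Whether the genotypes differ in this respect was not tested.

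Members moved together from array to array. After each gene's mean per genotype and time was taken off, the median correlation between pairs of the 52 bright members over the 72 arrays was 0.25, and 83.1% of pairs were above 0. Over 61 mitochondrial ribosomal protein genes with a probe above the same level the median was 0.095, and over all genes above it 0.0036. The mitochondrial genes were dimmer than the members, with means by set of 8.72 to 8.78, so these medians are not matched in brightness. Over the 60 arrays without WT set 6, the medians were 0.17, 0.072 and 0.0029 in the same order. Rps21, Rpl12 and Rps16 followed the mean of the other members most closely (r = 0.83, 0.82 and 0.79, or 0.68, 0.73 and 0.71 without WT set 6), and all 3 were among the members lower in KO. Rpl22 went the other way (r = -0.42, or -0.39 without WT set 6). Genes measured on 1 array share its RNA sample, RNA quality and normalization, and the part of these in the correlations was not told apart here. The level of the members and WT set 6 moved together, and the part of the set in the genotype differences was not tested beyond leaving it out.

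In the 250 bases before the listed starts, AGGTCA, the half-site of ROR and REV-ERB receptors, was searched on both strands and stood at 11.8% of the starts of members and 14% of all starts. Of the 9 rhythmic members with an entry, Rpl22 had it. CACGTG, the E-box of the clock factors, which reads the same on both strands, stood at 10.3% of the starts of members and 6.02% of all starts, and of the rhythmic members Rpl13a had it. The letters of the motifs can overlap, but no member had both. Among the members lower in KO, Rps4x had AGGTCA and none had CACGTG in these bases, although the window of Rpl23 printed above holds these letters across the listed start, where the search ended. These are matches of letters and no sites of binding.

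Genes that share the biology of the members were counted from lists of the same kind. Fau, which encodes RPS30 fused to a ubiquitin-like protein and is a 40S gene that the naming rule misses, averaged 10.66 ± 0.14 in KO and 10.84 ± 0.12 in WT (SD, n = 36 each), a log2 difference of -0.18 (adjusted p = 4.6e-06). It was -0.15 without WT set 6 (adjusted p = 2.8e-04), and its KO set means, at most 10.68, lay below its WT set means, at least 10.81. Of 17 measured genes with TOP mRNAs other than the members, Fau included, 3 fell and none rose in KO: Eef1d, of the elongation factor complex (log2 difference -0.18, adjusted p = 1.2e-08), Fau and Btf3, of the nascent chain complex (-0.12, adjusted p = 0.0099). Of 41 genes of ribosome assembly, Ncl, nucleolin, rose (0.089, adjusted p = 0.048), and Eif6, which keeps free 60S subunits apart from 40S, fell (-0.13, adjusted p = 0.014). Of these 41, 14 were rhythmic in KO and 15 in WT, where 13.7% and 15.8% of all genes were. Bright probes measured 17 of the 41, and of all genes as bright 40.2% were rhythmic in KO and 42.9% in WT. Of 16 genes of the TORC1 and S6 pathway, Rheb, the GTPase that activates TORC1, rose (0.10, adjusted p = 0.015) and none fell. Of 76 mitochondrial ribosomal protein genes, 15 rose and 3 fell in KO, with a median log2 difference of 0.023. Of the 61 with a bright probe 14 rose and 3 fell, where 16.2% of all genes as bright rose and 15.7% fell. Beside all these lists, 5.93% of all genes rose and 6.38% fell. The shares of genes as bright, 16.2% and 15.7%, also apply to them in part. Bright probes measured 11 of the 17 TOP genes and 7 of the 16 genes of the TORC1 and S6 pathway.

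Markers of other liver cells were set beside these results. Beside the counts that follow, 6.38% of all genes fell and 5.93% rose, and of genes as bright 15.7% fell and 16.2% rose. Bright probes measured 5 of the 10 endothelial and 4 of the 7 hepatocyte markers. They measured 2 of the 8 of stellate and bile duct cells, 4 of the 9 of Kupffer cells and 2 of the 4 erythroid ones. Of 10 endothelial markers, 3 fell in KO, and the mean over them was 7.25, 7.25 and 7.23 in KO sets 4, 5 and 6, against 7.38, 7.34 and 7.29 in WT sets 6, 9 and 10. None of the 10 rose. On single arrays this mean ran from 7.03 to 7.33 in KO and from 7.17 to 7.59 in WT. Of 8 lymphocyte markers, all near the floor, 1 fell, with the list's mean from 5.91 to 6.05 in KO and from 5.93 to 6.07 in WT. Of 7 hepatocyte markers 6 were below 0 in KO and 2 fell. These were Cps1, of the urea cycle, which averaged 12.25 in KO and 12.54 in WT (log2 difference -0.29, adjusted p = 4.6e-07), a difference as large as that of Rpl23a, and Alb, albumin, whose probe lay near the floor (-0.068, adjusted p = 0.039). The mean over the 7 was 9.94, 9.93 and 9.92 in KO sets 4, 5 and 6, against 10.003, 9.9974 and 9.9995 in WT sets 6, 9 and 10, so that every KO set was lower. On single arrays it ran from 9.77 to 10.02 in KO and from 9.83 to 10.16 in WT. Cps1 had by far the largest of the 7 differences, and the next was -0.077, for Serpina1a. Of 8 markers of stellate and bile duct cells 1 fell, and of 9 Kupffer cell and 4 erythroid markers none passed. The part of these cells in the results on members was not tested.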

How the data were processed

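Total liver RNA had been labelled with the Illumina TotalPrep kit and hybridised to BeadChips. The authors deposited the average signal intensity of 25697 probes on 72 arrays, not normalized, and a table of log2 values of the same arrays, normalized between arrays by the authors, with a column median of 6.694. The submitters' processing notes name Partek; no version or step was found in the sources. It served as an alternative. No detection p-values were used, so the number of arrays limits the precision. Signals were corrected with normexp (offset 50), quantile normalized and taken to log2 (limma 3.58.1, R 4.3.3). Of the probes, 23978 had 1 gene name in GEO's platform annotation. The other 1719 had no single gene name (none or several) and were left out. The brightest probe stood for each of 16593 genes, and all 66 members matched RefSeq (GRCm38.p6) by gene ID. Genotypes were compared with limma without a term for time, as the study did first, over all 72 arrays; rhythms by regression on a 24 h cosine and sine within genotype; rhythm differences and single times with limma over all arrays. Adjusted p-values are Benjamini-Hochberg over all genes, threshold 0.05. Labels give 3 mice per group. Figures were drawn with Python 3.11.15 and matplotlib 3.10.9. The tests were checked on simulated data.

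The members and lists were chosen with earlier results of these data known. Named were Rps6, P-stalk members, paralogs and other matches, the largest called changes and rhythms, members on chromosome 4, the brightest and dimmest probes, PCR reference genes, and up to 3 called genes per other list. Rps4x and further members named to complete a count were chosen after their values were seen. Alternatives were the deposited log2 values, no background correction, median scaling, dim genes left out, the mean of a gene's probes, time or set in the fit, each set or 1 array left out, a replicate block, and for rhythms the means per time and limma's F-test.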

Additional observations from a re-analysis of the deposited data

Results flagged for a closer look

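Members with several probes hold data that the comparisons above did not use, since the brightest probe stood for each gene. The 66 members had 84 probes, and 15 members had more than 1. Unused probes of 2 members passed the genotype test although the probe used did not. A second probe of Rpl38, annotated to another transcript of the gene, averaged 7.40 ± 0.15 in KO and 7.29 ± 0.13 in WT (SD, n = 36 each), a log2 difference of 0.113 (adjusted p = 0.012 by limma over all probes), where the probe used had -0.029 (adjusted p = 0.71). By set it was 7.38, 7.40 and 7.42 in KO sets 4, 5 and 6, against 7.39, 7.18 and 7.30 in WT sets 6, 9 and 10. A second probe of Rps19, near the floor of the array, averaged 6.28 ± 0.11 in KO and 6.18 ± 0.075 in WT, a log2 difference of 0.103 (adjusted p = 1.9e-04 by limma), where the bright probe had -0.0034 (adjusted p = 0.98). All 3 of its KO set means, at least 6.25, lay above its WT set means, at most 6.19. Why the probes of a gene differ was not tested.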

How the results depend on the processing

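Under the alternatives that kept all arrays, the count of members lower in KO stayed between 7 and 9 and shared 7 to 9 genes with the 9 reported. Leaving out 1 set at a time took it from 2 (without WT set 6) to 11 (without WT set 9), that of members higher from 0 to 2, and the median member log2 difference, reported as -0.023, from -0.044 to 0.0026; the difference of Rpl23, reported as -0.22, ran from -0.378 to a reversed 0.021. Members higher in KO numbered 2 with time as a factor (Rpl22, Rplp0) and 1 with the mean of all probes (Rps19). Rhythmic members in KO ranged from 2 to 6 and in WT from 3 to 4 over sets left out; with median scaling they were 1 in KO and 2 in WT, and on the means of 3 arrays 0 in KO. Without the WT 12 h array, an alternative chosen after seeing the data, as were those without WT set 6 for single times, member groups, correlations and amplitudes, 0 members passed at 12 h in place of 2. No rhythm differed under any alternative run, the replicate block included. The replicate numbers were not used as pairs, since not every pair deviated together: deviations of same-numbered KO and WT samples correlated from -0.131 to 0.377, over 0.1 in 23 of 36 pairs. On the deposited log2 values the replicate block gave 0 members higher and 9 lower, 6 rhythmic in KO and 6 in WT, as without it. With set as a random block 9 members stayed lower, but the correlation within sets over all genes was 0.0044, so that block leaves set effects of single genes in place. Of the single values of named genes, 249 kept direction and side of the threshold, 41 lost the threshold and 1 reversed. Probes near the floor limit what 14 members can show.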
